A study of Mus musculus with 8 samples.

Results

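Dense-core vesicles store neuropeptides and neurotrophic factors and release them on stimulation. The genes described here are 10 components of these vesicles, taken by name: the granins Chga, Chgb, Scg2, Scg3 and Vgf, the prohormone convertases Pcsk1 and Pcsk2, the convertase chaperone Scg5, the carboxypeptidase Cpe and the amidating enzyme Pam. All 10 were found among the 28662 transcripts of the deposited table, and all 10 were among the 10588 genes that passed the filter on low values and were tested. Each of them reached at least 10 RPM (the value scaled to the mouse's column total) in every mouse, so none entered through a single group.

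Granins are acidic proteins that aggregate in the lumen of the trans-Golgi network and help to form the dense core, and several of them are themselves precursors of secreted peptides. Precursors are cut at paired basic residues by the convertases PC1/3 (Pcsk1) and PC2 (Pcsk2), the basic residues left at the new end are trimmed by carboxypeptidase E (Cpe), and a C-terminal glycine is turned into an amide by Pam. In the cerebral cortex these vesicles are found in inhibitory neurons, whose neuropeptides are widely used as markers, and in pyramidal neurons, where Vgf, Scg2 and Bdnf are known to follow neuronal activity.

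The study sequenced poly(A)+ RNA from the right cerebral cortex of C57BL/6 mice. Bigenic mice (n = 4) carried Camk2a-tTa, in which the Camk2α promoter drives the tetracycline transactivator mainly in forebrain excitatory neurons, and a tetracycline-regulated human TDP-43 whose nuclear localization signal was disabled (ΔNLS-hTDP-43), so that the protein accumulates in the cytoplasm. Doxycycline, which keeps this transgene off, was withdrawn at 28 days of age, and tissue was taken 10 days later. Nontransgenic mice (n = 4) followed the same diet and carried neither transgene, so effects of the transactivator and of ΔNLS-hTDP-43 cannot be told apart. Per the study's methods, 3 mice of each group were male. The table columns name the group but not the replicate number, so the mice are called a to d within each group. The human transgene itself was not analysed here.

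The deposited values are whole numbers scaled between mice, called normalized counts here. Each mouse had between 10.63 M and 31.93 M reads on genes, estimated from the spacing of the values. Bigenic mouse b was the shallowest, at 10.63 M against 15.23 M to 31.93 M in the other bigenic mice, and it stood apart in a principal component analysis of all genes, with a first-component score of 46.0 against 12.8 to 15.1 in the other 3 bigenic mice. Fold changes are therefore given with all 4 bigenic mice and without mouse b. All fold changes are on the log2(normalized count + 1) scale, bigenic over nontransgenic, and are followed by the standard error (SE) and limma's p-value after Benjamini-Hochberg adjustment over all genes tested. A gene is called higher or lower where that value is below 0.05. The replicates are separate mice, per the study's methods. In bulk tissue, fewer cells of a type and less RNA per cell cannot be told apart.

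The 10 genes moved in both directions. Chga and Vgf were higher in bigenic cortex (2 of 10, against 20.5% of all genes tested), and Cpe, Scg5 and Scg3 were lower (3 of 10, against 15.4% of all genes tested). Chgb, Scg2, Pcsk1, Pcsk2 and Pam did not pass the test. The groups did not overlap for Chga, Scg3 and Cpe (3 of 10, against 39.0% of all genes tested). With 10 genes these counts lie within about 2 genes of their background, and nothing particular to the members is read from them. The median log2 fold change of the 10 was -0.11, beside 0.03 over all genes tested. Without bigenic mouse b, 2 of the 10 were higher and 5 were lower, as Chgb and Pam joined the lower ones, against 25.3% higher and 20.3% lower over the genes then tested.

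**Figure D1:**
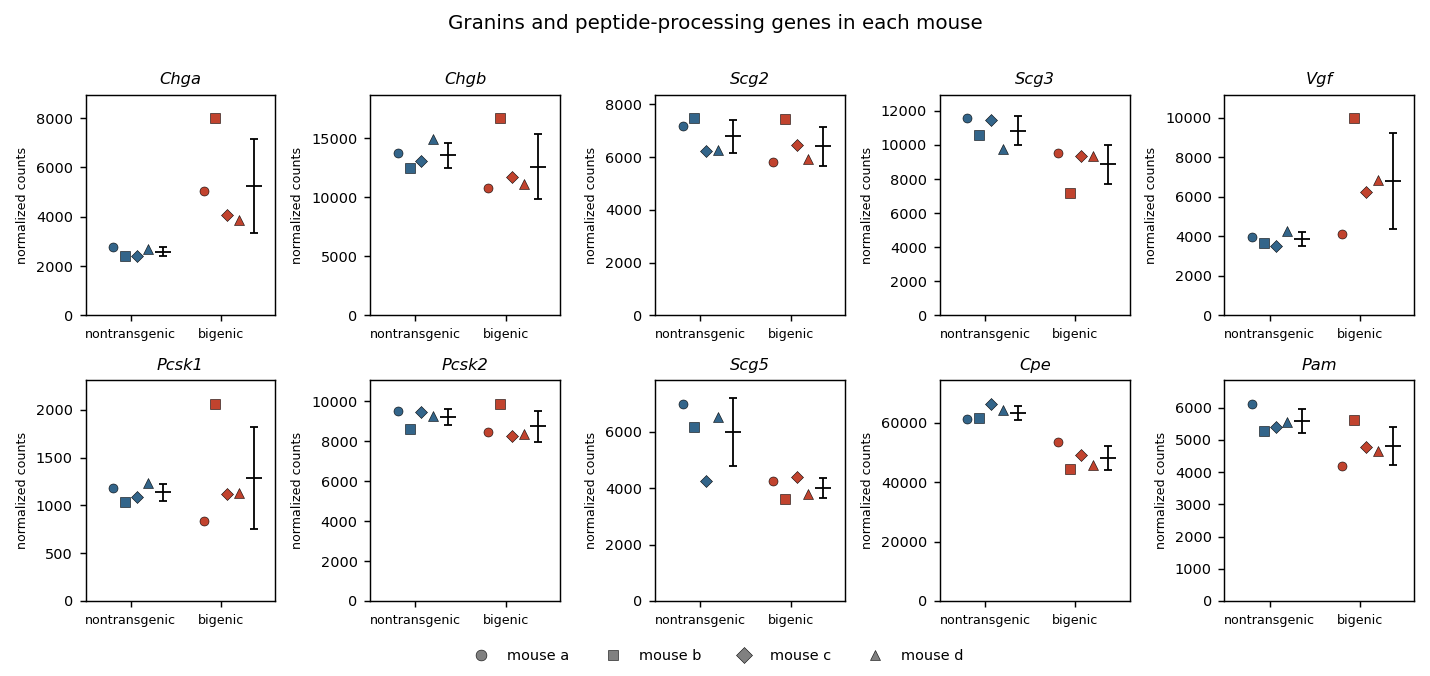
Normalized counts of the 10 genes in each mouse (vertical axes start at 0); marker shapes give the mouse, blue is nontransgenic and red is bigenic, and the bars are the mean ± SD of 4 mice. Chga separates the groups upward and Cpe downward, while bigenic mouse b (red square) is the highest or lowest of its group in all 10 panels.

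The promoters of these genes share letters that the selection did not use. RefSeq promoter windows (250 bases before to 50 bases after the start, GRCm38.p6) were matched for 8 of the 10 genes, all but Vgf and Cpe. They were searched on both strands for the cAMP response element TGACGTCA, known as a binding sequence of CREB, and for its 5-base core TGACG, which lies within the longer sequence. The complete element is shown because it was present in 3 of the 8 genes, against 1.79% of 32851 promoters, and the 5-base core in 7 of the 8, against 20.8%. The members are counted by gene, whereas the background is counted by promoter over all RefSeq promoters and not only those of tested genes. Capitals mark the matched bases, written 5′ to 3′ on the strand of the gene.
Scg2: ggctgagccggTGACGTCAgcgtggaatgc
Chgb: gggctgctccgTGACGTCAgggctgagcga
Pcsk1: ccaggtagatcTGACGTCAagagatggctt
Chga: gggcggtcctaTGACGtaatttcctgg
The Scg2 stretch lies at chr1:79440076-79440105 on the minus strand, with the element 68 bases before the start. The Chgb stretch lies at chr2:132781559-132781588 on the plus strand, 72 bases before the start, and that of Pcsk1 at chr13:75089768-75089797 on the plus strand, 78 bases before it. Chga, at chr12:102554886-102554912 on the plus strand, holds only the core, 44 bases before the start. The Scg3, Scg5 and Pcsk2 windows also hold the core alone, and the Pam windows hold neither. A match describes letters and not a bound site.

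Chga encodes chromogranin A, a granin that drives vesicle formation and is the precursor of several peptides (12:103793179-103803237, plus strand, NCBIM37, the mm9 assembly, as are all gene positions here). Its normalized counts were 5037, 7985, 4077 and 3877 in bigenic mice a to d and 2787, 2416, 2425 and 2686 in nontransgenic mice a to d. Every bigenic mouse lay above every nontransgenic mouse, and mouse b was the highest. The group means were 5244 ± 1900 and 2578.5 ± 187 (SD, n = 4 each), a log2 fold change of 0.96 (SE 0.20, 95% interval 0.52 to 1.41, adjusted p = 0.00471), or 1.95-fold. Without mouse b the difference was 0.74 (SE 0.09, adjusted p = 0.000129), or 1.67-fold, and Chga remained called whichever single mouse was left out.

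Vgf encodes a neurotrophin-inducible granin whose peptides act in synaptic plasticity and energy balance (5:137506165-137509221, plus strand). Bigenic mice had 4117, 9968, 6234 and 6831 normalized counts, and nontransgenic mice had 3985, 3686, 3511 and 4292. Mice b, c and d were above every nontransgenic mouse, but bigenic mouse a fell inside the nontransgenic range. The means were 6787.5 ± 2420 and 3868.5 ± 344 (SD, n = 4 each), and the log2 fold change was 0.75 (SE 0.22, 95% interval 0.26 to 1.23, adjusted p = 0.0236), or 1.68-fold. It was 0.54 (adjusted p = 0.0127) without mouse b. The call was lost without bigenic mouse d (adjusted p = 0.0532) and without nontransgenic mouse a, b or c (0.0539, 0.0626 and 0.0669), while the log2 fold change stayed between 0.54 and 0.96.

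Scg3, secretogranin III, anchors chromogranin aggregates to the cholesterol-rich vesicle membrane (9:75491071-75531803, minus strand). It measured 9514, 7182, 9375 and 9335 normalized counts in bigenic mice and 11554, 10566, 11466 and 9759 in nontransgenic mice. The groups did not overlap, though bigenic mouse a and nontransgenic mouse d lay close together, and mouse b was far below the other bigenic mice. From means of 8851.5 ± 1120 and 10836 ± 846 (SD, n = 4 each), the log2 fold change was -0.30 (SE 0.10, 95% interval -0.53 to -0.06), at the edge of the threshold (adjusted p = 0.0493). It was -0.20 without mouse b (adjusted p = 0.0323). The call was lost without bigenic mouse a (adjusted p = 0.0518), c (0.0564) or d (0.0642), without nontransgenic mouse a (0.126), b (0.0938) or c (0.129), with no filter on low values (0.0775), with every mouse rescaled to the same column total (0.0746) and under quantile normalization (0.155). In those fits the log2 fold change stayed between -0.34 and -0.25.

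Chgb encodes chromogranin B, a major granin of the dense core (2:132607014-132620815, plus strand). Its normalized counts were 10832, 16691, 11762 and 11122 in bigenic mice and 13762, 12497, 13107 and 14943 in nontransgenic mice. Bigenic mice a, c and d were below every nontransgenic mouse, whereas mouse b was above all of them. With all mice the log2 fold change was -0.13 (SE 0.13, 95% interval -0.42 to 0.17, adjusted p = 0.479), and without mouse b it was -0.27 (95% interval -0.42 to -0.12, adjusted p = 0.00858). Chgb was also called lower with array weights, in which mouse b weighed 0.0843 (-0.20, adjusted p = 0.00774). The call for Chgb therefore rests on how much that mouse counts.

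Scg2 encodes secretogranin II, the precursor of secretoneurin (1:79431244-79436665, minus strand). Bigenic mice had 5811, 7441, 6440 and 5933 normalized counts and nontransgenic mice had 7160, 7462, 6240 and 6272. Bigenic mice a and d lay below every nontransgenic mouse, and mice b and c lay within the nontransgenic range. The log2 fold change was -0.08 (SE 0.10, adjusted p = 0.531), and its 95% interval of -0.31 to 0.14 leaves room for a modest change in either direction. Chga and Vgf were thus called higher while Scg3 was called lower, and the summed normalized counts of the 5 granins took 0.175, 0.224, 0.182 and 0.179% of the column total in bigenic mice and 0.185, 0.179, 0.175 and 0.181% in nontransgenic mice. Those sums overlapped, with only mouse b set apart.

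**Figure D2:**
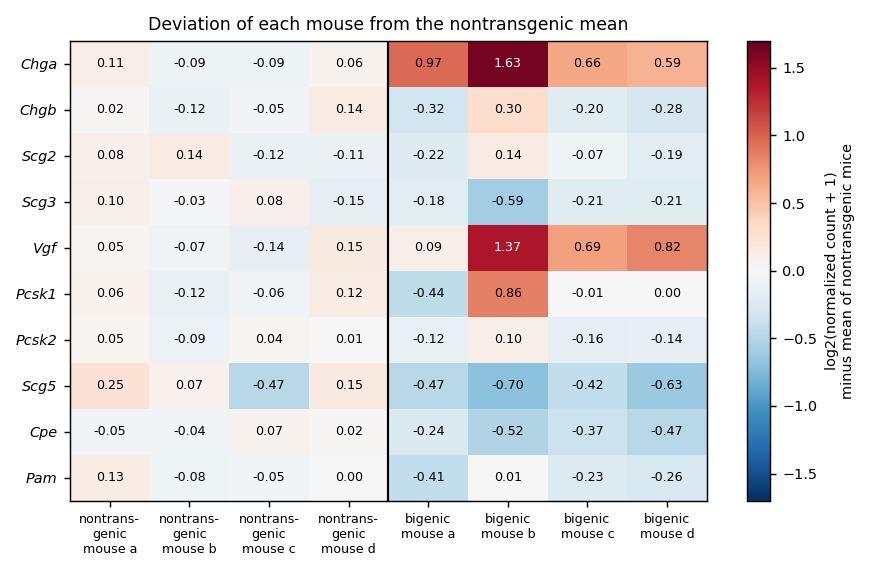
Log2(normalized count + 1) of each gene in each mouse minus the mean of the 4 nontransgenic mice, with red above and blue below that mean. Chga is above it in all 4 bigenic mice (0.59 to 1.63) and Cpe below it (-0.52 to -0.24), while among bigenic mice Chgb, Scg2, Pcsk1 and Pcsk2 are above it only in mouse b (0.10 to 0.86).

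Pcsk1, the convertase PC1/3, makes the early cuts in many precursors and was the least abundant of the 10 (13:75227274-75269946, plus strand). It measured 837, 2060, 1123 and 1132 normalized counts in bigenic mice and 1180, 1040, 1087 and 1235 in nontransgenic mice. Mouse b had the highest and mouse a the lowest of all 8 values, and mice c and d lay within the nontransgenic range. The log2 fold change was 0.10 (SE 0.22, 95% interval -0.40 to 0.60, adjusted p = 0.742), and its sign turned without mouse b, to -0.15 (adjusted p = 0.284). No direction can be given for Pcsk1.

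Pcsk2 encodes PC2, which makes the later cuts that release many neuropeptides (2:143371892-143642021, plus strand). The normalized counts were 8462, 9869, 8268 and 8377 in bigenic mice and 9540, 8634, 9481 and 9255 in nontransgenic mice. Bigenic mice a, c and d lay below the nontransgenic range and mouse b above it. The log2 fold change was -0.08 (SE 0.08, 95% interval -0.25 to 0.09, adjusted p = 0.446) with all mice and -0.14 (adjusted p = 0.0635) without mouse b. It passed the threshold only with array weights (-0.13, adjusted p = 0.0285). Pcsk2 exons overlap 2 genes annotated on the opposite strand, C630020P19Rik and Gm12360, and counting by strand is not stated.

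Scg5 encodes 7B2, the chaperone that PC2 needs to become active (2:113616519-113669278, minus strand). Bigenic mice had 4249, 3632, 4394 and 3796 normalized counts and nontransgenic mice had 6990, 6187, 4241 and 6522. Nontransgenic mouse c lay among the bigenic mice and was the only one to do so. The means were 4017.8 ± 362 and 5985 ± 1210 (SD, n = 4 each), and the log2 fold change was -0.55 (SE 0.15, 95% interval -0.88 to -0.23, adjusted p = 0.016), or 0.681-fold. It was -0.51 (adjusted p = 0.0153) without mouse b and -0.71 (adjusted p = 0.00173) without nontransgenic mouse c, and the call was lost without nontransgenic mouse a (-0.47, adjusted p = 0.0517).

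Cpe, carboxypeptidase E, removes the C-terminal basic residues left by the convertases, also acts as a sorting receptor, and is made by astrocytes as well as neurons (8:67071355-67171837, minus strand). Its normalized counts were 53460, 44271, 49122 and 45801 in bigenic mice and 61306, 61589, 66303 and 64342 in nontransgenic mice. Every bigenic mouse was below every nontransgenic mouse. From means of 48164 ± 4070 and 63385 ± 2380 (SD, n = 4 each), the log2 fold change was -0.40 (SE 0.07, 95% interval -0.57 to -0.23, adjusted p = 0.00298), or 0.758-fold. It was -0.36 (adjusted p = 0.00112) without mouse b and stayed called whichever mouse was left out, but under quantile normalization it was -0.30 (adjusted p = 0.0763).

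Some astrocyte markers were lower, as Cpe was. Of 8 astrocyte markers 4 were lower, none was higher and 4 did not pass, among them Gfap (log2 fold change 0.04, adjusted p = 0.863). Over all genes tested, 15.4% were lower and 20.5% higher. The lower ones were led by the gap junction gene Gja1 (-0.43, adjusted p = 0.00525) and the water channel gene Aqp4 (-0.63, adjusted p = 0.00698). The summed normalized counts of the 8 ranged from 119814 to 140925 in bigenic mice and from 148188 to 159894 in nontransgenic mice. Slc1a2 made up most of each sum, with 78858 to 101564 in bigenic and 101337 to 111078 in nontransgenic mice. None of the 8 markers was at 0 in any mouse. Their part in the Cpe result was not tested.

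Pam converts peptides that end in glycine to their amidated, often active, form (1:99691691-99992223, minus strand). It measured 4184, 5613, 4763 and 4656 normalized counts in bigenic mice and 6110, 5277, 5390 and 5563 in nontransgenic mice. Bigenic mice a, c and d were below the nontransgenic range and mouse b was within it. The log2 fold change was -0.22 (SE 0.10, 95% interval -0.44 to -0.01, adjusted p = 0.0969), and it reached -0.30 (adjusted p = 0.00568) without mouse b. Pam also passed the threshold after median-of-ratios scaling (-0.27, adjusted p = 0.041), quantile normalization (-0.23, adjusted p = 0.0442) and array weights (-0.23, adjusted p = 0.00234).

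**Figure D3:**
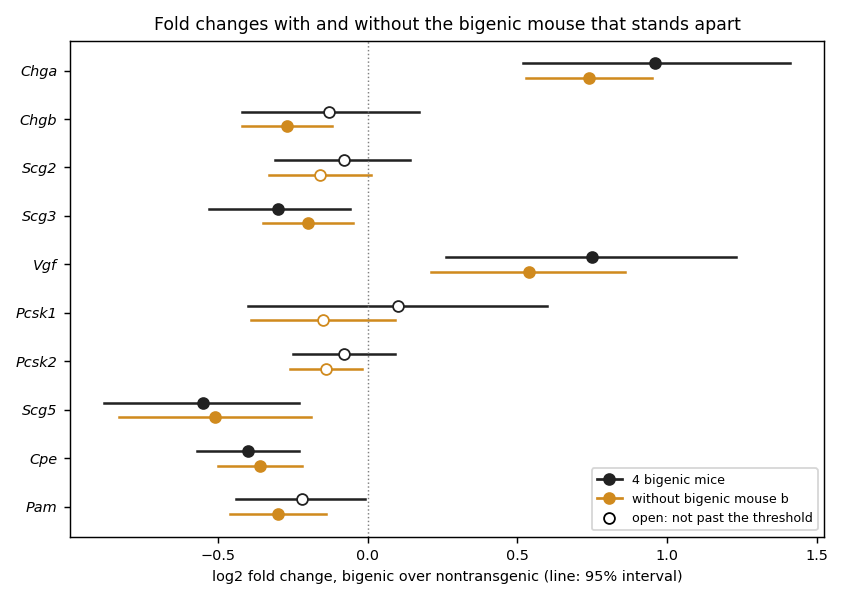
Log2 fold changes (horizontal axis, bigenic over nontransgenic) with 95% intervals for each gene, from limma with all 4 bigenic mice (black) and without bigenic mouse b (orange); filled points passed an adjusted p of 0.05. Chga, Vgf, Scg3, Scg5 and Cpe are filled in both fits, Chgb and Pam only without mouse b, and Pcsk1 changes sign.

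Per kilobase of annotated exon, the order of levels changed at the middle. In nontransgenic mice, mean normalized counts per kilobase were 30400 for Cpe, 4960 for Chgb, 4820 for Scg3, 3810 for Scg5 and 2730 for Scg2. Vgf followed at 1520 and Chga at 1370, then Pcsk2 at 1170, Pam at 698 and Pcsk1 at 350. The ranges over mice of Chgb and Scg3, Scg3 and Scg5, Scg5 and Scg2, and Vgf and Chga overlapped, and the other neighbours in this order did not.

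Among bigenic mice, Cpe again led at 23100 normalized counts per kilobase, ahead of Chgb at 4600 and Scg3 at 3940. Chga at 2790 and Vgf at 2660 came next, above Scg2 at 2580 and Scg5 at 2560. The 6 genes from Chgb to Scg5 formed a chain in which each neighbour's range over mice overlapped the next. Below them lay Pcsk2 at 1110, Pam at 601 and Pcsk1 at 397, and the last 2 overlapped. The exon lengths are GENCODE's and not the authors' transcript models, so the order depends on those lengths.

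Ratios taken within a mouse do not depend on the scaling between mice. The Chga to Chgb ratio of normalized counts was 0.465, 0.478, 0.347 and 0.349 in bigenic mice and 0.203, 0.193, 0.185 and 0.18 in nontransgenic mice. The groups were far apart, and mouse b was level with mouse a. For Vgf to Scg2 the ratio was 0.708, 1.34, 0.968 and 1.15 in bigenic mice and 0.557, 0.494, 0.563 and 0.684 in nontransgenic mice, without overlap, although bigenic mouse a was only just above the highest nontransgenic mouse.

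The Scg5 to Pcsk2 ratio sets the chaperone against its convertase. It was 0.502, 0.368, 0.531 and 0.453 in bigenic mice and 0.733, 0.717, 0.447 and 0.705 in nontransgenic mice, and only nontransgenic mouse c overlapped the bigenic range. The Pcsk1 to Pcsk2 ratio had medians of 0.135 and 0.122, with bigenic mouse b highest at 0.209 and bigenic mouse a lowest at 0.0989. Scg2 to Scg3 (medians 0.661 and 0.631) and Cpe to Pam (10.1 and 11.6) overlapped between groups as well. These ratios are descriptions and were not tested.

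**Figure D4:**
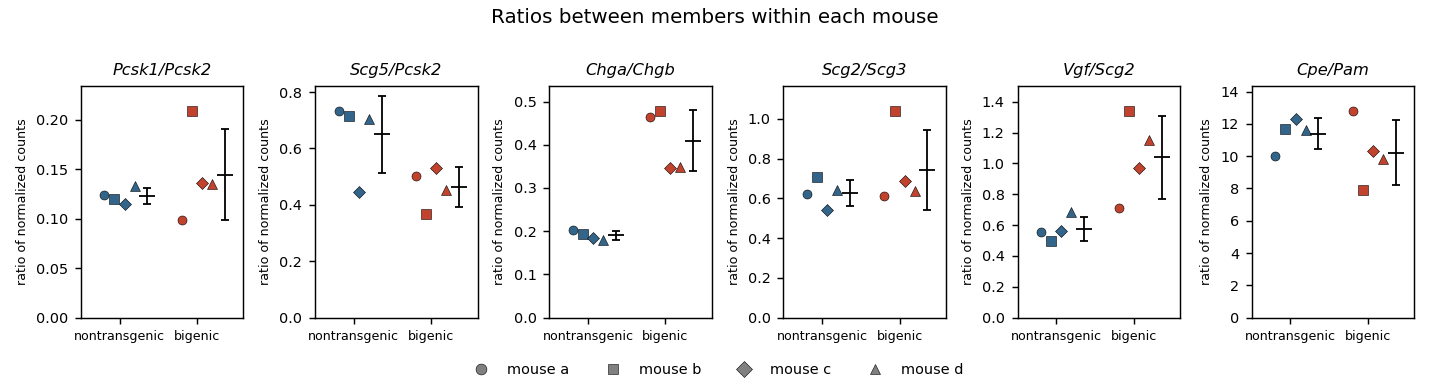
Ratios of normalized counts between pairs of the 10 genes within each mouse (vertical axes start at 0), with the mean ± SD of 4 mice per group. Chga/Chgb (0.347 to 0.478 against 0.18 to 0.203) and Vgf/Scg2 (0.708 to 1.34 against 0.494 to 0.684) separate the groups, and the other 4 ratios overlap.

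The summed share of all 10 genes was dominated by Cpe. It was 0.529, 0.522, 0.507 and 0.487% of the column total in bigenic mice and 0.587, 0.584, 0.587 and 0.594% in nontransgenic mice, lower in every bigenic mouse. With Cpe left out the shares were 0.264, 0.32, 0.271 and 0.266% in bigenic mice and 0.298, 0.283, 0.271 and 0.288% in nontransgenic mice. Those ranges overlapped, and mouse b held the highest share.

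Bigenic mouse b was the highest bigenic mouse for 7 of the 10 genes (Chga, Chgb, Scg2, Vgf, Pcsk1, Pcsk2 and Pam) and the lowest for Scg3, Scg5 and Cpe. An extreme value in this mouse was common in the whole table too, in 81.5% of all genes tested. It carried 1.96 times the median of the other 3 bigenic mice for Chga, 1.83 times for Pcsk1, 1.6 times for Vgf and 1.5 times for Chgb, and 0.766 times for Scg3. For the called genes the direction was the same with and without it.

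Markers of other cell types were read beside these results. Their counts stand against 20.5% higher and 15.4% lower over all genes tested, and some, such as the endothelial one, are near those shares. Of 8 excitatory neuron markers, 2 were lower, led by Camk2a (log2 fold change -0.88, adjusted p = 0.000176). Their summed normalized counts ran from 44337 to 63772 in bigenic and from 73069 to 80468 in nontransgenic mice, and Camk2a made up most of the difference. Inhibitory neuron markers (10 genes in 11 rows) had 3 rows lower and none higher, led by Sst (-0.46, adjusted p = 0.00277) and a row of Dlx1 (-0.36, adjusted p = 0.0156). The other row of Dlx1 did not pass (-0.12, adjusted p = 0.468). The inhibitory sums were 17506 to 18436 in bigenic and 19324 to 21245 in nontransgenic mice. Both sums were lower in every bigenic mouse, on the side of Cpe, Scg5 and Scg3. Their part in these results was not tested.

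Choroid plexus markers rose, on the side of Chga and Vgf. Of 11 listed, 6 were tested and 5 were higher, led by F5 (log2 fold change 2.71, adjusted p = 5.08e-05) and the klotho gene Kl (2.25, adjusted p = 7.87e-05). Enpp2 did not pass (0.34, adjusted p = 0.128). F5, Kl, Clic6 and Prlr reached the filter of 10 RPM only in bigenic mice (for F5, 173 to 251 against 22 to 36 normalized counts). The count of higher choroid plexus markers is therefore partly set by that filter. The 6 summed to 14275 to 29482 normalized counts in bigenic and 6591 to 8221 in nontransgenic mice. Ttr made up most of the difference, with 7741 to 18520 in bigenic and 236 to 1023 in nontransgenic mice. Bigenic mouse b had the lowest of the bigenic sums, 14275, and the highest Chga, Vgf and Pcsk1. That mouse was the highest or lowest bigenic mouse in 81.5% of all genes tested, so nothing is read from its rank here. The part of choroid plexus RNA in the results was not tested. None of 8 peptide genes of the hypothalamus and other peptidergic regions, such as Avp and Oxt, had a row in the symbol table used.

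Microglia markers were lower in 5 of 8 and higher in none, led by Cx3cr1 (-0.56 on the log2 scale, adjusted p = 0.00156) and P2ry12 (-0.65, adjusted p = 0.00206), with sums of 4261 to 5251 in bigenic and 5500 to 6412 in nontransgenic mice. Oligodendrocyte markers had 1 of 8 higher, Mobp (0.60, adjusted p = 0.0317), and the next, Mag, did not pass (0.37, adjusted p = 0.0626), with overlapping sums of 65609 to 87367 and 66577 to 83232. Endothelial markers had 1 of 7 lower, Flt1 (-0.26, adjusted p = 0.0404), followed by Cdh5, which did not pass (-0.20, adjusted p = 0.223), and their sums overlapped (4191 to 4829 and 4620 to 5856). No tested marker of any list was at 0 in any mouse. The part of these cell types was not tested.

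The machinery that builds dense-core vesicles and releases their content shifted downward in more genes than upward. Of 24 genes listed, 20 were tested, 3 were higher, 7 were lower and 10 did not pass, with a median log2 fold change of -0.16. Over all genes tested the median was 0.03, with 20.5% higher and 15.4% lower, and the lists that follow are read beside the same values. Syt10, a calcium sensor of peptide-containing vesicles, measured 83, 48, 80 and 76 normalized counts in bigenic mice and 325, 325, 238 and 321 in nontransgenic mice (log2 fold change -2.08, SE 0.20, adjusted p = 8.42e-05). Syt10 reached 10 RPM only in nontransgenic mice, so it was tested through the group where it is higher. Ptprn2 (phogrin), a membrane protein of dense-core vesicles, fell from 8070 ± 661 to 4920 ± 250 normalized counts (SD, n = 4 each), a log2 fold change of -0.71 (adjusted p = 0.000201). Only bigenic mice carried Camk2a-tTa, so the part of that transgene in the Ptprn2 value cannot be told apart here. The Ptprn2 relative Ptprn (IA-2) was higher (0.32, adjusted p = 0.0443), as were the exocytosis regulators Stxbp5 (0.34, adjusted p = 0.00415) and Rims2 (0.36, adjusted p = 0.00869). Among related genes, any beyond the 2 most strongly called of a list were named after their values were seen.

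Other enzymes that act on precursors went both ways. Of 20 genes listed, 17 were tested, 3 were higher, 4 were lower and 10 did not pass, with a median log2 fold change of -0.07. Ece1, endothelin-converting enzyme, rose from 1110 ± 123 to 2100 ± 545 normalized counts (log2 fold change 0.90, adjusted p = 0.00217). Pcsk1n, which encodes the PC1/3 inhibitor proSAAS, was higher as well, with 3994, 8661, 3761 and 4385 normalized counts in bigenic mice and 2614, 2779, 2939 and 3455 in nontransgenic mice (0.74, adjusted p = 0.0335, and 0.46 with adjusted p = 0.00249 without mouse b). The third was the Golgi glutaminyl cyclase Qpctl (0.42, adjusted p = 0.0217).

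Those that fell included 3 subunits of the signal peptidase complex, which removes signal peptides in the endoplasmic reticulum. Spcs3 fell from 3920 ± 210 to 2470 ± 489 normalized counts (log2 fold change -0.69, adjusted p = 0.00466), and Spcs1 (-1.08, adjusted p = 0.0173) and Spcs2 (-0.45, adjusted p = 0.0309) were lower too. The fourth was Qpct, the secretory glutaminyl cyclase, which forms N-terminal pyroglutamate (-0.99, adjusted p = 0.00918). Qpct passed the filter of 10 RPM only in nontransgenic mice, where it is higher. Without nontransgenic mouse b the list had 1 gene higher in place of 3, and without nontransgenic mouse a it had 2 lower in place of 4.

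Among the peptides and growth factors that these vesicles carry, none was called higher and 4 were lower. Of 27 genes listed, 13 were tested, with a median log2 fold change of -0.08. Nptx2, an activity-regulated secreted pentraxin, had 827, 962, 1308 and 1503 normalized counts in bigenic mice and 2716, 2477, 2257 and 2438 in nontransgenic mice (log2 fold change -1.14, SE 0.17, adjusted p = 0.000927). Somatostatin (Sst) had 2559, 2560, 2495 and 2428 in bigenic mice and 3496, 3650, 3738 and 2966 in nontransgenic mice (-0.46, adjusted p = 0.00277). Cholecystokinin, Cck, was lower (-0.49, adjusted p = 0.00638) and so was proenkephalin, Penk (-1.38, adjusted p = 0.0426), although bigenic mouse a, at 1575, lay within the nontransgenic range of 1118 to 2091 for Penk. By limma, 2 cargo genes were called higher without bigenic mouse b, and 1 was without bigenic mouse a, c or d.

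Receptors for neuropeptides were lower in 6 and higher in 2 of the 16 tested of 31 listed, and their median log2 fold change was -0.21. Oprl1, the nociceptin receptor, rose from 863 ± 26.7 to 1380 ± 133 normalized counts (log2 fold change 0.67, adjusted p = 0.000412), and the corticotropin-releasing hormone receptor Crhr1 was also higher (0.64, adjusted p = 0.00449). Oxtr, the oxytocin receptor, was the lower receptor with the smallest adjusted p-value, at 148 ± 21.9 against 270 ± 32.8 normalized counts (-0.86, adjusted p = 0.0017). It too passed the filter of 10 RPM only in nontransgenic mice. Without nontransgenic mouse d, 3 receptors were called lower in place of 6.

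Genes regulated by neuronal activity were examined because Vgf and Scg2 are known to belong among them. All 20 listed were tested, 1 was higher, 5 were lower and 14 did not pass, with a median log2 fold change of -0.25. Gadd45b, a stress- and activity-induced regulator, rose from 200 ± 36.7 to 392 ± 32.7 normalized counts (log2 fold change 0.98, adjusted p = 0.000715). Nptx2, also counted among the cargo, fell, as did the transcription factors Npas4 (-1.02, adjusted p = 0.00342), Egr3 (-1.01, adjusted p = 0.00632) and Egr2 (-1.91, adjusted p = 0.0475) and the scaffold Homer1 (-0.66, adjusted p = 0.00581). Vgf was therefore higher while more of these genes were lower than higher. Without bigenic mouse a or nontransgenic mouse d, 2 of them were called higher in place of 1, and the immediate-early gene Arc ranged from 621 to 7175 normalized counts within the nontransgenic mice. Egr2 passed the filter of 10 RPM only in nontransgenic mice.

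**Figure D5:**
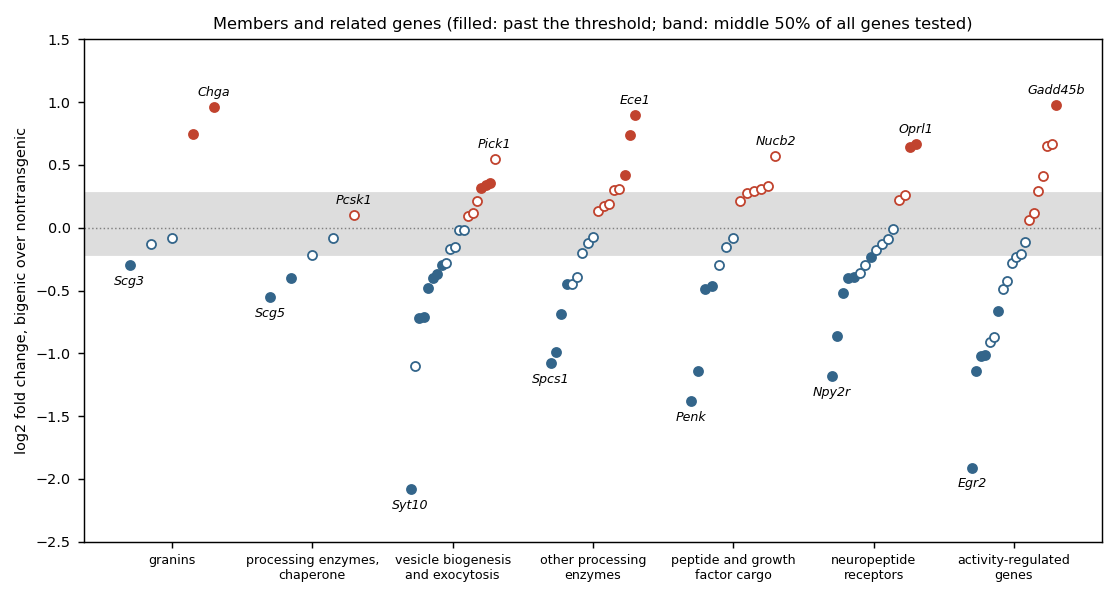
Log2 fold change (vertical axis, bigenic over nontransgenic) of each tested gene in the granin and processing groups and in 5 related lists; filled points passed the threshold, red is above and blue below 0, and the grey band (-0.22 to 0.28) holds the middle 50% of all genes tested. Chga (0.96) and Scg5 (-0.55) lie outside the band, and Syt10 (-2.08) is the lowest point.

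Profiles most like those of Cpe, Chga and Scg5, the 3 most strongly called genes, were found by root mean square distance between centred log2 values over the 8 mice. For Cpe the nearest were Ramp1 (0.044), Glod4 (0.0462) and Pde3b (0.0487), each lower in bigenic mice (log2 fold changes -0.33, -0.45 and -0.40). Chga was nearest to Aars (0.0655), Pex14 (0.0906) and Calcoco1 (0.0937), with log2 fold changes of 0.93, 0.98 and 0.93. In all 3 of these, as in Chga, bigenic mouse b was the highest mouse, for example 9619 normalized counts of Aars against 4994 to 5942 in the other bigenic mice. Scg5 was nearest to Lrig1 (0.124), Tnc (0.131) and Tox3 (0.135), which shared its low value in nontransgenic mouse c. The distance includes the difference between groups and the values of single mice. The similar fold changes and the shared high or low mice therefore follow from the choice and are no separate result. The distance describes these 8 mice only.

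TDP-43 is known to bind UG-rich RNA, so runs of TGTGTGTGTGTG (12 bases, sense strand) were counted in the gene spans on NCBIM37. Cpe held 17, Scg5 8, Chga 4, Scg3 28, Pam 50 and Pcsk2 84, and Scg2, Chgb, Vgf and Pcsk1 held 0. That is 6 of 10 genes, beside 74.0% of the 10067 tested genes with a matched annotation. In exons only Pcsk2 held such a run, 1 of 10 genes beside 11.1%. Genes with runs were called higher (Chga), lower (Cpe, Scg5 and Scg3) or not called (Pam and Pcsk2), and no binding was measured here. Of all windows of 50 bases in the exons, 98.4% in Pcsk2 and 98.5% in Pam occur once in the genome, as does every window of the other 8 genes.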

How the data were processed

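Poly(A)+ libraries came from right cortex, 4 mice of each genotype. After adaptor removal (cutadapt), the authors aligned reads to the mm9 assembly using Bowtie (version 0.12.7, per the submitters' processing notes), retained those with a unique position, and summed exon counts (bedtools) by gene. The deposited values are normalized counts, whole numbers rounded after scaling between mice, and are treated as a score and not as raw counts. A second deposited table holds the authors' fold changes and p-values. Only its identifiers and symbols were used.

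The study's own count model needs raw counts, so limma 3.58.1 (lmFit, eBayes with a trend, R 4.3.3) was fitted to log2(value + 1) of the 10588 genes that reached 10 RPM (of a column's sum) in any mouse. P-values were adjusted by the Benjamini-Hochberg method over all of them, with a threshold of 0.05. The step was checked on data of known answer. Column totals ranged from 20.126 M to 21.981 M, and 3 reads correspond to 1.94 to 6.20 normalized counts, so depth limits genes well below those described. Columns were assigned to groups by name, and the letters a to d follow column order and pair nothing. Positions, exon lengths, repeats and 50-base windows come from GENCODE and the genome of build NCBIM37. Promoters come from RefSeq (GRCm38.p6) and were not joined to those coordinates.

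The members and lists were chosen with earlier results of these data known. Named genes are the 10 members, the 2 genes of smallest adjusted p-value in each list and the 3 nearest profiles of the 3 most strongly called members. Some related and marker genes were also named after their values were seen. List genes without a symbol were not analysed here. A marker gene that this rule names is not reported here. Alternatives were pseudocounts of 10 and 0.1, no filter, a filter in every mouse, 3 other scalings, array weights, a threshold of 0.01 and leaving out each mouse. Python 3.11.15, numpy 2.4.6, pandas 2.3.3 and matplotlib 3.10.9 were used.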

Additional observations from a re-analysis of the deposited data

Results flagged for a closer look

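The highest and lowest mouse of each group was compared with the rest of its group for each of the 10 genes, 20 groups in all, by the gap to the nearest mouse over the whole range (Dixon's criterion at 95%). Chance alone would mark about 1 in 20 independent groups, and 3 were marked here, all through bigenic mouse b. The groups of different genes hold the same mice and are not independent. Mouse b was the highest or lowest bigenic mouse in 81.5% of all genes tested, so nothing particular to the members is read from these flags. Scg3 had its lowest bigenic value there, 7182 normalized counts against 9335 to 9514 in the other 3 (gap over range 0.923). Chgb had its highest bigenic value there, 16691 against 10832 to 11762 (0.841). Pcsk2 did as well, 9869 against 8268 to 8462 (0.879).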

How the results depend on the processing

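No paired analysis was possible because the table columns carry no replicate numbers. Under 17 alternatives per gene, Chga and Cpe kept their direction in every fit, and Chga its call (log2 fold change 0.70 to 1.09), while Cpe lost its call only under quantile normalization (-0.30, adjusted p = 0.0763). Scg5 lost it in 2 of 17, Vgf in 5 and Scg3 in 10. Pcsk1 alone turned sign, to -0.15 without bigenic mouse b (0.10 with all mice, -0.15 to 0.28 with 1 mouse left out). At an adjusted p below 0.01, 1 of the 10 genes was higher and 1 lower; array weights gave 6 lower. Leaving out 1 mouse gave 1 to 2 higher (1 without bigenic mouse d or nontransgenic mouse a, b or c) and 1 to 5 lower (5 without bigenic mouse b, 1 without nontransgenic mouse a). Over all genes tested, 3796 were called, 6455 with array weights (mouse b weighed 0.0843), 2057 at 0.01 and 2654 to 4782 with 1 mouse left out.

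In the related lists, array weights gave 6 higher and 7 lower among other processing enzymes, 4 higher among cargo and 4 higher among activity-regulated genes. A threshold of 0.01 gave 1 higher and 2 lower other processing enzymes and 3 lower receptors. A filter of 10 RPM in every mouse left 2 lower other processing enzymes and 0 higher activity-regulated genes (limma; fewer genes are then tested). With 1 mouse left out, counts higher and lower ranged over 2 to 3 and 5 to 8 (vesicle machinery), 1 to 4 and 2 to 5 (other processing enzymes), 0 to 2 and 3 to 4 (cargo), 2 to 3 and 3 to 8 (receptors) and 1 to 2 and 4 to 7 (activity-regulated genes). Where no construction is named, the cause was not tested. Rescaling moved the median log2 fold change of all genes by less than 0.1. With 4 mice a group, the 95% intervals given set the size of change that could be shown.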
